A study of Mus musculus with 22 samples.

Results

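The clustered protocadherins of the mouse were described in Ts66Yah mice and their control littermates (wt), in whose brains the hippocampus (HIP) and entorhinal cortex (EC) were sampled. Members were the protein-coding genes of chromosome 18 whose GENCODE vM21 symbol begins with Pcdha, Pcdhb or Pcdhg followed by a number or by a letter and a number. This rule took 57 of the 55385 genes in the count table and used no expression value. The members were 14 genes of the alpha cluster, 22 of the beta cluster and 21 of the gamma cluster, all on the + strand between positions 36930184 and 37841873 (GRCm38), a span of 912 kb.

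Clustered protocadherins are adhesion molecules of the neuronal surface that bind the same isoform on a facing membrane, and they allow a neuron to tell its own branches from those of other neurons. Each variable exon carries its own promoter, and single neurons switch on a few of them in an apparently random choice that depends on CTCF, cohesin and DNA methylation, so that neighbouring cells differ in the isoforms they carry. The C-type isoforms at the end of the alpha and gamma clusters are instead used by most neurons. Alpha and gamma transcripts join one variable exon to constant exons shared by their cluster, whereas a beta transcript is made from its own exon alone.

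RNA-Seq was performed on 22 libraries from 11 male mice of 5 to 6 months, with a HIP library and an EC library from each of 5 wt and 6 Ts66Yah animals. Ts66Yah mice carry a freely segregating minichromosome with an additional copy of a part of mouse chromosome 16 (Mmu16), obtained from the Ts65Dn minichromosome by removing its centromeric part of Mmu17 with CRISPR/Cas9. The line goes back to a single mosaic founder male mated to C57BL/6NCrl females, per the published methods, and was then kept on the mixed B6C3B background, from C3B males and C57BL/6J females. The wt animals lack the minichromosome, and the protocadherin clusters lie on chromosome 18, outside the additional segment. Libraries were separate animals within each group and region, so that p-values of the genotype comparisons within a region measure the spread between animals. The comparisons of regions and the interaction used both libraries of each mouse, and their main fits had no block per animal. The test for animals sets the differences between animals against the spread within them.

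Each library held 25.9 to 50.1 M assigned reads (median 34.7 M). App and Dyrk1a, both on the additional segment, checked the genotype labels, with log2 fold changes of 0.61 ± 0.05 (SE) and 0.54 ± 0.04 in HIP and of 0.57 ± 0.05 and 0.61 ± 0.07 in EC. The tissue labels were checked by the summed CPM (counts scaled to a common library size, TMM factors included) of marker genes. A list of 7 hippocampal markers summed to 414 to 528 CPM in HIP and 27.9 to 48.3 in EC, and a list of 7 cortical markers to 415 to 657 in EC and 129.9 to 179.7 in HIP, although of the cortical markers Fezf2 was not called and Cdh24 was lower in EC, by -1.71 ± 0.16 in wt and -1.65 ± 0.14 in Ts66Yah mice on the log2 scale. The EC library of wt animal 2 stood apart in 6 striatal markers, which summed to 279.9 CPM there against 140.3 to 197 in the other EC libraries.

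In this kind of counting a read is assigned to a gene only where it falls on no other gene. For the alpha and gamma clusters this leaves out the shared constant exons, so that a count reflects the variable exon of that isoform. Bases exclusive to a gene made up a median of 46.4% of the exonic bases in the alpha cluster, 54.8% in the gamma cluster and 100% in the beta cluster. Overlaps on either strand were left out of this length. Of 26 protein-coding genes with at least 500 bases exclusive on their own strand, all of them covered by exons of the other strand, 23 (88.5%) had a count of 0 in all 22 libraries, against 15.6% of 16119 genes with no such cover. Pcdhga10 had no exclusive base and counts of 1 to 15 per library, and Pcdha4 had 404 exclusive bases and counts of 2 to 26. The table carries the symbol Pcdha11 for 2 identifiers, of which RefSeq places Pcdha10 at ENSMUSG00000007440, and the entry ENSMUSG00000102206, with 1268 exclusive bases and counts of 1 to 16, passed the count filter of no comparison, as did Pcdhga10. Related isoforms also share short stretches, and the share of 50-base windows found again in another gene reached 25.5% in Pcdha7, 16.8% in Pcdhgb1 and 9.52% in Pcdhb11, and was 0 in the C-type members.

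Levels per length were compared as CPM per kb of exclusive bases, averaged over the 11 libraries of a region. Pcdhgc5, a C-type gamma isoform (chr18:37819513-37841873), was the most abundant member, with 26.2 ± 1.84 (SD, n = 11) in HIP and 36.6 ± 3.06 in EC. It was followed by the C-type isoforms Pcdhgc3 (chr18:37806364-37841873), with 15.9 ± 1.499 and 16.5 ± 1.09, and Pcdhac2 (chr18:37143503-37187657), known for the axon wiring of serotonergic neurons, with 11.4 ± 1.06 and 16.01 ± 2.18. The level of Pcdhgc3 lay above that of Pcdhac2 by more than their SDs in HIP, whereas in EC both differed by less than their SDs. Pcdhgc4, a C-type isoform that neurons need for survival, reached 3.24 ± 0.327 in HIP and 5.02 ± 0.355 in EC, and Pcdhac1 1.85 ± 0.209 and 2.90 ± 0.535. The C-type members thus held the first 3 places in both regions, but Pcdhgc4 and Pcdhac1 lay within the range of the variable isoforms.

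The gamma cluster was the highest per length. Its median over 20 members was 3.76 CPM per kb in HIP and 3.57 in EC, against 1.25 and 1.801 over 13 alpha members and 1.41 and 1.49 over 22 beta members. Pcdhga11 was the highest variable gamma member (7.50 ± 2.01 in HIP and 7.98 ± 2.02 in EC), a rank that rests on the length used. When only overlaps on the same strand were excluded its level was 3.57 in HIP and 3.80 in EC, and Pcdhga4 (4.80) in HIP and Pcdhga6 (5.60) in EC were then the highest variable gamma members. Over the whole exonic length, shared exons included, the alpha medians were 0.571 and 0.709, below the beta medians of 1.35 and 1.44. Excluding overlaps on the same strand only also lowered Pcdhgc3 to 8.56, below Pcdhac2, which kept its length. In the alpha cluster Pcdha12 came after Pcdhac2, at 2.35 ± 0.333 and 3.77 ± 0.608. In the beta cluster Pcdhb9 was the highest, at 5.08 ± 0.579 and 5.47 ± 0.592, followed in HIP by Pcdhb17 (3.20 ± 0.235) and Pcdhb20 (2.88 ± 0.153). These neighbours were about as far apart as their SDs, and in EC their order was inverted, with 4.21 ± 0.278 for Pcdhb20 and 3.79 ± 0.589 for Pcdhb17.

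The lowest members rested on few reads. Pcdha8 had 0.110 ± 0.0351 CPM per kb in HIP and 0.173 ± 0.0700 in EC, from counts of 4 to 21, and Pcdhb1, the beta gene nearest to the alpha cluster, had 0.107 ± 0.0549 and 0.123 ± 0.0479, from counts of 0 to 18. No gamma member tested was that low, the lowest being Pcdhgb4 in HIP (1.06 ± 0.163) and Pcdhgb5 in EC (1.06 ± 0.192), whose levels differed from each other by less than their SDs in HIP. The highest tested member exceeded the lowest one 103-fold in the alpha cluster, 47.7-fold in the beta cluster and 24.8-fold in the gamma cluster in HIP.

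**Figure D1:**
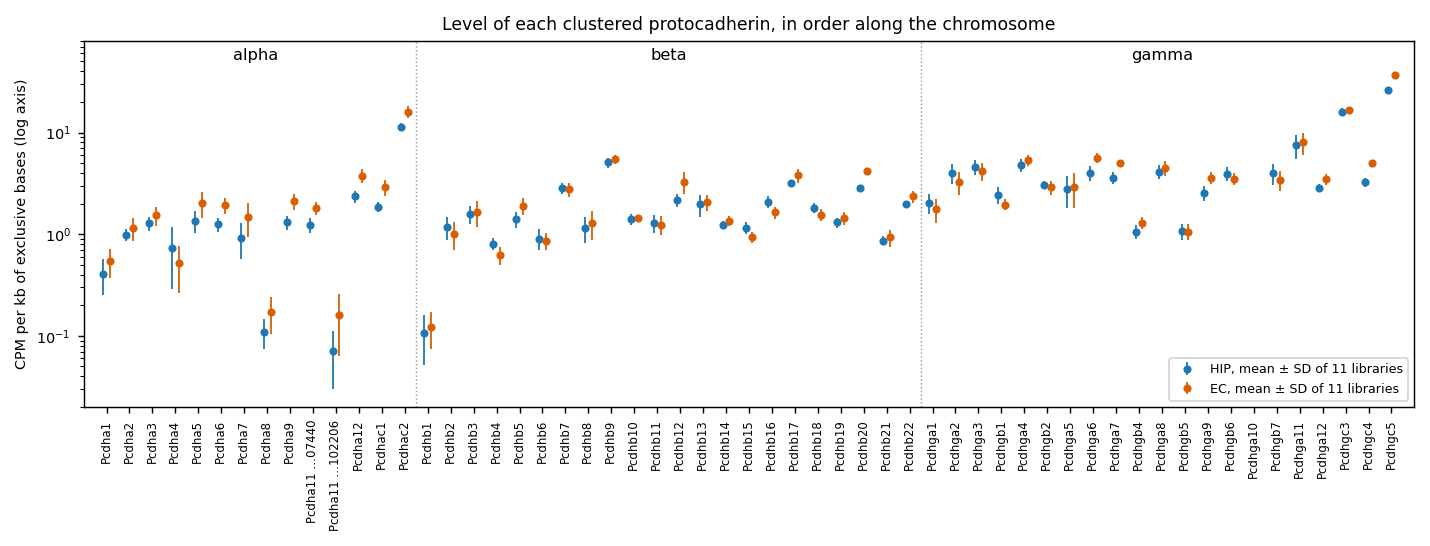
Level of each clustered protocadherin in CPM per kb of exclusive bases on a log axis, with genes in chromosomal order and points and bars for the mean and SD of 11 HIP (blue) or 11 EC (orange) libraries. Pcdhgc5, Pcdhgc3 and Pcdhac2 stand highest, and Pcdha8, Pcdhb1 and the Pcdha11 entry ENSMUSG00000102206 lowest; Pcdhga10 has no exclusive base and no point.

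By summed CPM, the gamma cluster gave the largest part of the protocadherin reads in every library. The alpha cluster summed to 65.2, 59.6, 61.1, 69.4 and 67.5 CPM in the HIP of the 5 wt animals and to 77.6, 91.2, 91.4, 95.8 and 71.9 in their EC. In Ts66Yah mice the alpha sum ran from 59.8 to 70.3 (median 64.9) CPM in HIP and from 89.98 to 113 (median 98.8) in EC. All EC values lay above all HIP values, in wt as in Ts66Yah animals, the alpha sums of the genotypes overlapped in EC (85.6 ± 10.3 in wt and 99.8 ± 7.61 in Ts66Yah mice), and the median EC to HIP ratio within an animal was 1.38 in wt and 1.55 in Ts66Yah mice. The beta sum was 154 ± 4.02 (SD, n = 5) in wt HIP, 154 ± 16.1 (SD, n = 6) in Ts66Yah HIP, 162 ± 7.99 in wt EC and 169 ± 15.9 in Ts66Yah EC, and its EC to HIP ratio had medians of 1.051 and 1.10. The beta sums of both regions overlapped. The gamma sum was 305 ± 17.5 in wt HIP, 301 ± 24.2 in Ts66Yah HIP, 375 ± 21.4 in wt EC and 363 ± 23.5 in Ts66Yah EC, higher in EC than in the HIP of the same animal in 5 of 5 wt and 6 of 6 Ts66Yah mice.

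The counts of the members were also split into shares, so that a change common to all members drops out. The alpha share was 12.3% ± 0.502 in wt HIP and 13.7% ± 0.978 in wt EC, and 12.5% ± 0.417 and 15.8% ± 0.808 in Ts66Yah mice. In EC the alpha share ran from 12.5% to 14.7% in wt and from 14.8% to 16.9% in Ts66Yah mice, and the gamma share from 59.9% to 60.7% and from 56.7% to 58.0%. The genotypes did not overlap in these EC shares, of which no test was made, and they overlapped in the HIP shares of all clusters. The shares of the clusters add up to the whole, so the alpha and gamma shares are not independent. Pcdhac2 was the largest single part of the alpha sum. In EC it had 38.2 to 49.97 CPM of a sum of 71.9 to 95.8 in wt and 44.8 to 58.2 of 89.98 to 113 in Ts66Yah mice. The 5 C-type members took 38.01% ± 1.33 of all counts in wt HIP and 43.1% ± 1.81 in wt EC, and Pcdhgc5 alone 39.0% ± 1.17 and 45.3% ± 3.11 of the gamma counts. The same shares in Ts66Yah mice were 38.7% ± 2.64 and 43.6% ± 2.096 for the C-type members and 40.7% ± 2.22 and 46.1% ± 1.63 for Pcdhgc5. The genotype means of both shares differed by less than 1 SD of the Ts66Yah libraries, but those of Pcdhgc5 in HIP by more than the wt SD of 1.17.

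Ts66Yah and wt animals were compared within each region. In HIP, no member passed an adjusted p of 0.05 among 55 tested (edgeR's quasi-likelihood test, Benjamini-Hochberg over all genes), against 0.591% of all 18452 genes tested, 0.439% as higher and 0.152% as lower in Ts66Yah mice. At an unadjusted p under 0.05 there were 7 members (11.9% of all genes). DESeq2 called 0 members, against 1.94% of all 18448 genes it tested. The median log2 fold change was 0.03 in the alpha, 0.03 in the beta and -0.05 in the gamma cluster. The 95% interval of the fold change, from its SE with 9 residual degrees of freedom, lay within 1.5-fold in either direction for 40 of the 55 members, and reached beyond it for the other 15, Pcdha4, Pcdha5 and Pcdhga5 among them. The interval lay within 1.5-fold for 71.7% of all genes.

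The smallest p in HIP belonged to Pcdhb9, the most abundant beta isoform. It had 19.4, 15.7, 16.8, 17.4 and 15.7 CPM in the wt animals and from 13.5 to 15.5 (median 14.3) in the Ts66Yah animals. All Ts66Yah values lay below all wt values, and the difference was -0.24 ± 0.07 on the log2 scale (SE, adjusted p = 0.164 by edgeR's quasi-likelihood test and 0.0515 by DESeq2). The ranges of the genotypes did not overlap for 2 of 55 members, Pcdhb9 and Pcdhb20, against 1.87% of all genes. Pcdhb20 had 10.6, 10.5, 10.5, 10.9 and 10.9 CPM in wt and from 9.09 to 10.2 (median 10.1) in Ts66Yah HIP, a difference of -0.11 ± 0.06 on the log2 scale. Pcdha4 followed Pcdhb9 by p, with 0.138, 0.0973, 0.274, 0.264 and 0.0559 CPM in wt and from 0.212 to 0.620 (median 0.362) in Ts66Yah animals, a log2 fold change of 1.26 ± 0.40 (adjusted p = 0.229). These values come from 2 to 26 reads per library, and the ranges of the genotypes overlapped. Pcdhb11, another beta isoform, had 4.86, 5.38, 3.70, 4.98 and 5.70 CPM in wt and from 5.22 to 7.60 (median 6.38) in Ts66Yah HIP, with overlapping ranges and a log2 fold change of 0.37 ± 0.13 (adjusted p = 0.292).

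In EC, edgeR's quasi-likelihood test called 0 of 54 members tested (0.283% of all 17658 genes tested, 0.272% as higher and 0.0113% as lower), and 7 members had an unadjusted p under 0.05 (6.25% of all genes). DESeq2, which called 0.606% of all 17653 genes it tested, called 1 member, Pcdhga11. This member had 13.5, 13.0, 13.0, 11.2 and 10.5 CPM in the EC of the wt animals and from 6.01 to 10.0 (median 8.27) in that of the Ts66Yah animals. The ranges did not overlap, which held for 1 of 54 members and 0.957% of all genes. Its log2 fold change was -0.58 ± 0.14 with an adjusted p of 0.186 by edgeR's quasi-likelihood test and of 0.0123 by DESeq2. In the HIP of the same animals it had 13.5, 11.9, 11.6, 7.96 and 8.33 CPM in wt and from 5.12 to 11.4 (median 8.24) in Ts66Yah mice, with overlapping ranges and a log2 fold change of -0.35 ± 0.19. Without the EC library of wt animal 2 the edgeR count was also 0 (0.235% of all genes).

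The next members by p in EC were Pcdhac2 and Pcdhb11. Pcdhac2 had 38.2, 44.4, 46.1, 49.97 and 38.9 CPM in wt and from 44.8 to 58.2 (median 52.5) in Ts66Yah EC, a log2 fold change of 0.27 ± 0.08 with an adjusted p of 0.487 by edgeR's quasi-likelihood test. Pcdhb11 had 4.59, 4.70, 3.904, 4.70 and 5.64 CPM in wt and from 5.02 to 7.94 (median 5.96) in Ts66Yah EC, a log2 fold change of 0.39 ± 0.14 (adjusted p = 0.646). For both the ranges of the genotypes overlapped, and both regions come from the same animals, so the EC value of Pcdhb11 is no independent repeat of its HIP value. The 95% interval lay within 1.5-fold for 37 of 54 members in EC (70.7% of all genes). The other C-type members had log2 fold changes of 0.04 ± 0.06 in HIP and -0.03 ± 0.07 in EC for Pcdhgc5, -0.13 ± 0.07 and -0.08 ± 0.07 for Pcdhgc3, -0.06 ± 0.09 and -0.03 ± 0.08 for Pcdhgc4, and 0.13 ± 0.11 and 0.33 ± 0.14 for Pcdhac1. None of these passed the test with edgeR or DESeq2.

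Whether the genotype difference itself differed between EC and HIP was tested over all 22 libraries, in a fit without a term for the animal. Both libraries of a mouse were thus treated as independent, although they deviated together, and such a fit can miss differences. edgeR's quasi-likelihood test called 0 of 55 members (0% of all 19074 genes tested), 0 members had an unadjusted p under 0.05 (2.03% of all genes), and DESeq2 called 0 (0% of all 19069 genes). With the animal as block edgeR also called 0 of 55 members (0% of all genes). The smallest unadjusted p belonged to Pcdhac2, with a difference of 0.24 ± 0.12 on the log2 scale (unadjusted p = 0.0548, edgeR across all genes).

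**Figure D2:**
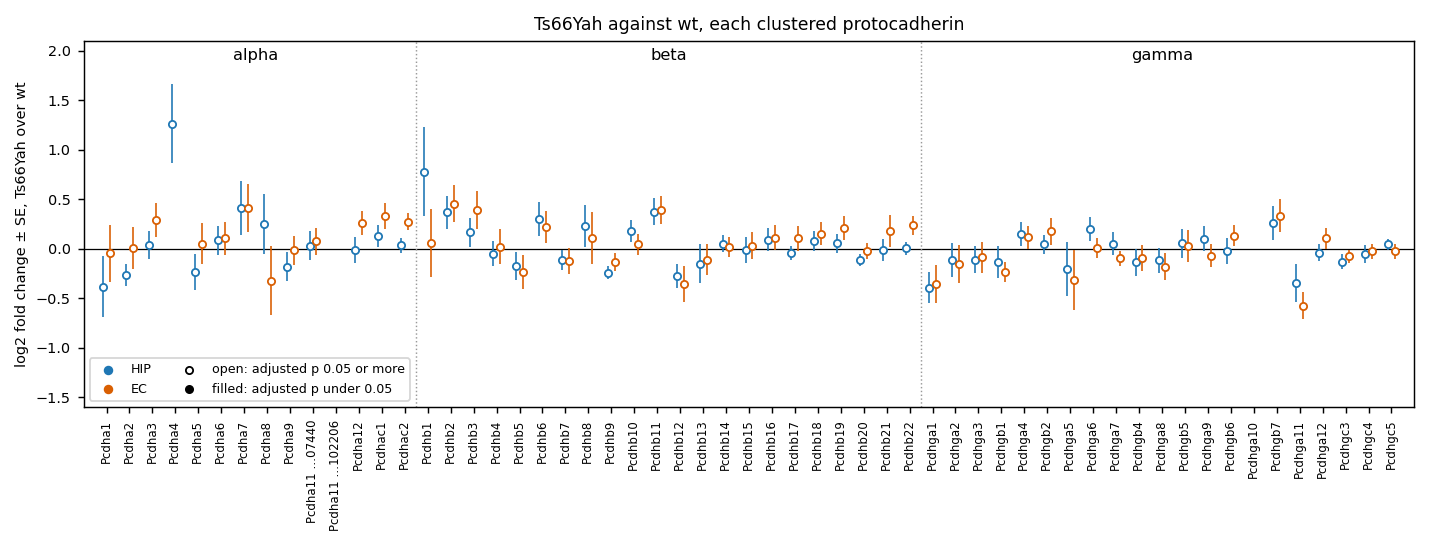
Log2 fold change of Ts66Yah over wt with its SE for each clustered protocadherin in chromosomal order, in HIP (blue) and EC (orange). All points are open, since no member passed an adjusted p of 0.05 with edgeR; the EC point of Pcdhga11 lies at -0.58 and the HIP point of Pcdha4 at 1.26.

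EC and HIP were compared within each genotype. In wt animals edgeR's quasi-likelihood test called 20 of 53 members (47.7% of all 17935 genes tested), 17 higher in EC (23.4% of all genes) and 3 lower (24.3%). The share of members called lay below that of all genes, and most of those called were higher in EC. By cluster, 9 of 12 alpha, 3 of 21 beta and 5 of 20 gamma members were higher in EC, and 3 beta members, Pcdhb4, Pcdhb15 and Pcdhb16, were lower. In Ts66Yah animals 22 of 55 members were called (54% of all 18043 genes tested), 20 higher (26.4%) and 2 lower (27.5%), with 8 of 13 alpha, 5 of 22 beta and 7 of 20 gamma members higher and 1 beta and 1 gamma member, Pcdhb16 and Pcdhgb1, lower. Pcdhb4 and Pcdhgb1 are outside the rule for named members, as are Pcdha1, Pcdha2, Pcdha3 and Pcdhga4, of which values are given elsewhere. All of these were added after their values had been seen. The median log2 difference was 0.53 in the alpha, 0.05 in the beta and 0.16 in the gamma cluster of wt mice and 0.60, 0.10 and 0.05 in Ts66Yah mice, against 0.01 over all genes in both.

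Both genotypes, which share no library, called 16 of 53 members in the same direction (42.7% of all genes) and 0 in opposite directions, that is 16 of the 20 wt calls and 16 of the 22 Ts66Yah calls. The 15 members higher in EC in both were Pcdha5, Pcdha6, Pcdha7, Pcdha9, the Pcdha11 entry ENSMUSG00000007440, Pcdha12, Pcdhac1, Pcdhac2, Pcdhb12, Pcdhb20, Pcdhga6, Pcdhga7, Pcdhga9, Pcdhgc4 and Pcdhgc5, and Pcdhb16 was lower in both. EC lay above HIP in every wt animal for 8 of 12 alpha, 4 of 21 beta and 9 of 20 gamma members (26.3% of all genes), and in every Ts66Yah animal for 8 of 13, 6 of 22 and 7 of 20 (25.9%). EC lay below HIP in every animal for 7 of 53 members in wt mice (28.2% of all genes) and for 4 of 55 in Ts66Yah mice (27.3%).

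Several C-type members were higher in EC. Pcdhgc4 had 12.8, 11.2, 10.5, 12.7 and 10.3 CPM in wt HIP and 17.7, 19.3, 19.2, 16.04 and 15.8 in wt EC, and in Ts66Yah mice from 8.90 to 12.2 (median 11.2) in HIP and from 15.9 to 18.3 (median 17.6) in EC. The regions did not overlap in either genotype, and its log2 difference was 0.62 ± 0.10 in wt and 0.64 ± 0.07 in Ts66Yah mice (adjusted p = 1.64e-04 and 4.38e-06 by edgeR's quasi-likelihood test). Pcdhgc5, with 130.3, 112, 112, 123 and 116 CPM in wt HIP and 159, 172, 180.4, 197 and 142 in wt EC, was higher in EC by 0.52 ± 0.08 in wt and 0.45 ± 0.05 in Ts66Yah mice. Pcdhac2, with 35.0, 29.7, 30.9, 37.5 and 36.9 CPM in wt HIP and 38.2, 44.4, 46.1, 49.97 and 38.9 in wt EC, differed by 0.36 ± 0.09 and 0.60 ± 0.07, and Pcdhac1 by 0.53 ± 0.16 and 0.73 ± 0.08. All of these passed the test in both genotypes. Pcdhgc3 did not, with 0.03 ± 0.06 in wt (adjusted p = 0.718) and 0.08 ± 0.07 in Ts66Yah mice (adjusted p = 0.384 by edgeR's quasi-likelihood test).

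Of the variable alpha isoforms, 6 were called as higher in EC in both genotypes, and Pcdha1, Pcdha2 and Pcdha3 in neither, with log2 differences of 0.23, 0.08 and 0.11 in wt and of 0.56, 0.35 and 0.36 in Ts66Yah mice. Pcdha12 had 3.62, 4.94, 4.47, 4.98 and 4.98 CPM in wt HIP and 6.38, 7.38, 7.55, 6.45 and 5.22 in wt EC, a log2 difference of 0.52 ± 0.13, and of 0.79 ± 0.12 in Ts66Yah mice. Pcdha9 differed by 0.59 ± 0.14 and 0.75 ± 0.15, and Pcdha6 by 0.61 ± 0.19 and 0.62 ± 0.12. Pcdha4 was the only tested alpha member with a negative value, -0.75 ± 0.33 in Ts66Yah mice, and did not pass (adjusted p = 0.0708 by edgeR's quasi-likelihood test). With a block per animal it was called as lower in EC (-0.73, adjusted p = 0.0395 by the same test). In wt mice it was not tested. The largest wt difference of the alpha cluster, 0.99 ± 0.31 for Pcdha8, rests on counts of 4 to 21 per library, and in Ts66Yah mice Pcdha8 did not pass, at 0.41 ± 0.34 (adjusted p = 0.329 by edgeR's quasi-likelihood test).

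Beta isoforms moved in both directions. Pcdhb20, with 10.6, 10.5, 10.5, 10.9 and 10.9 CPM in wt HIP and 15.7, 13.7, 15.5, 15.9 and 14.7 in wt EC, was higher in EC by 0.50 ± 0.07 in wt and 0.58 ± 0.07 in Ts66Yah mice, with no overlap between the regions. Pcdhb12 was higher by 0.64 ± 0.16 and 0.55 ± 0.15. Pcdhb9 (0.16 ± 0.06) and Pcdhb17 (0.31 ± 0.11) passed as higher in Ts66Yah mice and not in wt mice. Pcdhb16 was lower in EC in both genotypes, with 11.2, 9.78, 9.33, 11.1 and 11.0 CPM in wt HIP and 8.72, 8.86, 8.46, 8.48 and 6.43 in wt EC, and differed by -0.35 ± 0.11 in wt and -0.34 ± 0.13 in Ts66Yah mice. Pcdhb15 passed as lower in wt mice, at -0.34 ± 0.11, and had -0.30 ± 0.15 in Ts66Yah mice (adjusted p = 0.105 by edgeR's quasi-likelihood test). The difference between the genotypes was not called for any of these. In the gamma cluster the A-type isoforms Pcdhga7 (0.57 ± 0.11 and 0.41 ± 0.08), Pcdhga9 (0.59 ± 0.12 and 0.41 ± 0.13) and Pcdhga6 (0.59 ± 0.09 and 0.40 ± 0.12) were higher in EC in both genotypes, and none of the 6 B-type isoforms was called in wt mice without a block, with 1 at an unadjusted p under 0.05. With a block per animal Pcdhgb7, a B-type isoform, was called as lower in EC in wt mice (-0.26, adjusted p = 0.0475 by edgeR's quasi-likelihood test). In Ts66Yah mice Pcdhgb4 was higher in EC (0.32 ± 0.11) and Pcdhgb1 lower (-0.38 ± 0.15).

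**Figure D3:**
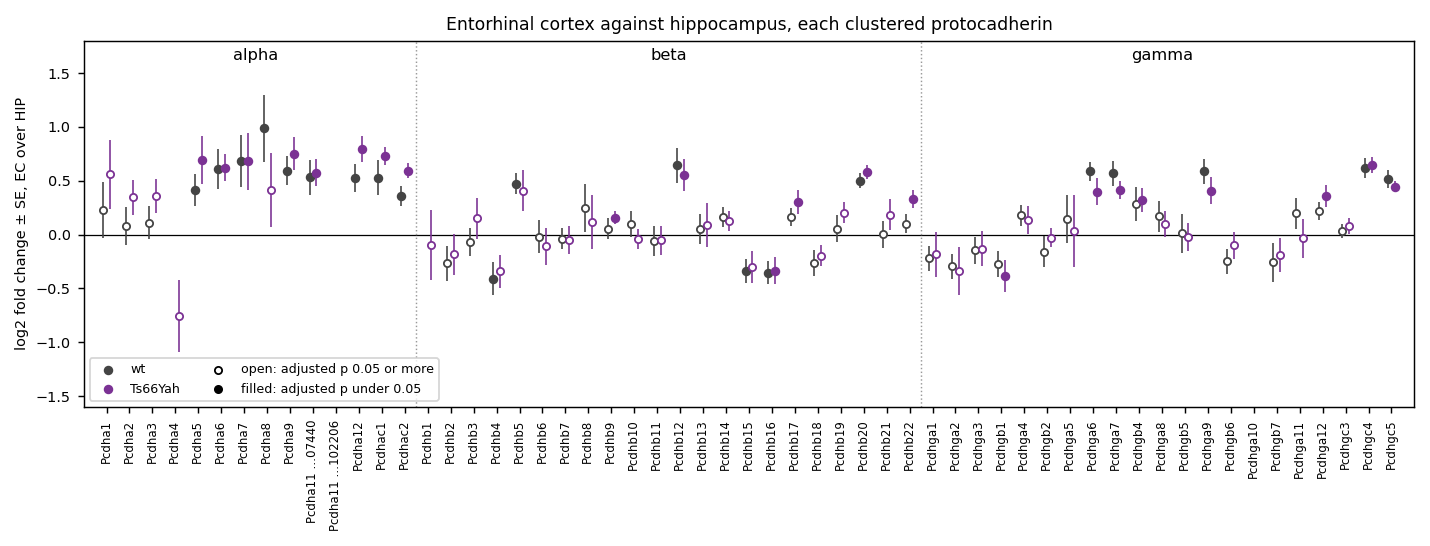
Log2 fold change of EC over HIP with its SE for each clustered protocadherin in chromosomal order, in wt (grey) and Ts66Yah mice (purple), filled where the adjusted p was under 0.05. Filled points lie above 0 across most of the alpha cluster, where 9 of 12 wt and 8 of 13 Ts66Yah values were called, and on both sides of 0 in the beta cluster.

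Markers of cell types moved with the region. The summed CPM of 5 neuronal markers was 7132 to 8045 in HIP and 8896 to 10204 in EC, and that of 5 oligodendrocyte markers 6355 to 9095 in HIP and 1275 to 3079.8 in EC. A list of 6 astrocyte markers summed to 4029 to 4634 in HIP and 4181 to 5174 in EC, but its genes went both ways. In wt mice 3 were higher and 1 lower in EC (log2 differences from -2.01 to 0.54), and in Ts66Yah mice 3 were higher and 2 lower (from -2.19 to 0.53). Of 5 microglial markers, which summed to 213 to 301 in HIP and 272 to 357 in EC, 4 were higher in EC in wt and 5 in Ts66Yah mice. Of 3 endothelial markers 2 were higher in EC in each genotype, and of 6 interneuron markers 2 in wt and 3 in Ts66Yah mice. Of 5 markers of the meninges, 3 were higher and 1 lower in wt and 0 higher and 1 lower in Ts66Yah mice. Of all genes, 23.4% were called as higher and 24.3% as lower in wt, and 26.4% and 27.5% in Ts66Yah mice. Choroid plexus markers (5 genes) summed to 109.6 to 3264 in HIP and 9.22 to 41.3 in EC. Rbfox3, a neuronal marker, was not called between the regions, and no gene of these lists was at 0 in all libraries. Their part in the differences between EC and HIP was not tested, and in bulk tissue fewer cells of a type and less RNA per cell cannot be told apart. Without wt animal 2, whose EC library had the high sum of striatal markers, 17 members were called in wt mice, 16 of them among the 20. The share of all genes called was then 42.4%, against 47.7% with this animal.

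Of the members named by the rule, some lost their call in the edgeR test when an animal was left out. In wt mice this held for Pcdha5 (animals 1, 2, 3 and 4, adjusted p up to 0.112), Pcdha6 (animals 1 and 4, adjusted p up to 0.0567), Pcdha7 (animals 1, 3 and 5, adjusted p up to 0.133), Pcdha8 (animals 2 and 5, adjusted p up to 0.0973), Pcdha11 ENSMUSG00000007440 (animals 1 and 3, adjusted p up to 0.06), Pcdhac1 (animals 2, 3 and 4, adjusted p up to 0.072), Pcdhb15 (animals 2, 3, 4 and 5, adjusted p up to 0.0759) and Pcdhb16 (animal 5, adjusted p 0.0545), each animal left out in turn. In Ts66Yah mice it held for Pcdha5 (animal 3, adjusted p 0.0515), Pcdha7 (animals 1, 2, 3 and 4, adjusted p up to 0.107), Pcdhb9 (animals 1, 2, 3, 4 and 6, adjusted p up to 0.139), Pcdhb16 (animals 1, 3, 4 and 5, adjusted p up to 0.097), Pcdhb17 (animals 1, 3, 5 and 6, adjusted p up to 0.0944) and Pcdhgb4 (animals 1, 2, 3 and 4, adjusted p up to 0.107). With an animal left out, 13 to 16 members were called as higher and 1 to 3 as lower in wt mice, and 15 to 20 and 0 to 2 in Ts66Yah mice. In these fits 40.0% to 44.5% of all genes were called in wt and 47.3% to 51.9% in Ts66Yah mice, against 47.7% and 54% with all animals. With a block per animal, so that both libraries of a mouse are paired, 24 of 53 members were called in wt (18 higher and 6 lower) and 30 of 55 in Ts66Yah mice (24 higher and 6 lower), against 53.3% and 59% of all genes. Among the members named by the rule, the block added Pcdhga2 (lower), Pcdhgb7 (lower) and Pcdhga12 (higher) in wt, and Pcdha4 (lower), Pcdhb5 (higher) and Pcdhga2 (lower) in Ts66Yah mice, and removed no call.

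A part of the members also differed between animals of the same genotype. This was tested as the joint effect of 9 animal terms over the 22 libraries, with the region effect of each genotype kept in the fit, so that a call means that the HIP and the EC library of an animal deviated together. edgeR's quasi-likelihood test called 17 of 55 members, against 6.83% of all 19074 genes tested, and 27 at an unadjusted p under 0.05 (24.6% of all genes). DESeq2 called 22 members and 16.1% of all genes. The members tested had a median of 7 of 11 animals on the same side of their genotype mean in HIP and EC, as had all genes tested (7). The 17 called had 9, but were selected by a test that favours such agreement, so this value adds no support. By cluster, 2 of 13 alpha, 6 of 22 beta and 9 of 20 gamma members were called, the latter being 8 of 11 A-type isoforms, 1 of 6 B-type isoforms and 0 of the C-type isoforms. Of the 5 C-type members in the alpha and gamma clusters, 0 were called by edgeR, with 1 at an unadjusted p under 0.05. Elsewhere on chromosome 18 the test called 31 of 490 genes, and of 20 neighbours tested in this fit inside or within 300 kb of the clusters 0, with 3 at an unadjusted p under 0.05. An animal term holds everything that both libraries of a mouse have in common, and its components cannot be told apart in this design.

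The largest F was that of Pcdhga5, an A-type gamma isoform (30.5, adjusted p = 9.99e-06 by edgeR's quasi-likelihood test). Its CPM in HIP was 11.9, 6.81, 6.70, 6.76 and 5.84 in wt animals 1 to 5, and 13.0, 7.02, 7.04, 7.56 and 7.22 in their EC. In Ts66Yah animals 1 to 6 it was 7.43, 6.12, 9.11, 2.73, 4.62 and 9.34 in HIP and 8.40, 6.45, 9.80, 2.95, 3.26 and 9.43 in EC. Wt animal 1 was the highest of all 11 in both regions and Ts66Yah animal 4 the lowest in both, and every animal lay on the same side of its genotype mean in HIP and EC. In HIP, the highest library exceeded the lowest one 4.37-fold, in EC 4.39-fold. Next to it on the chromosome, Pcdhga6 was also called with a smaller range, its CPM in HIP running from 9.02 to 10.3 (median 9.96) in wt and from 8.13 to 14.0 (median 11.4) in Ts66Yah animals (F of 5.63, adjusted p = 0.0335 by edgeR's quasi-likelihood test). The call of Pcdhga5 held without any single animal, whereas that of Pcdhga6 was lost without Ts66Yah animal 3, 4, 5 or 6 (adjusted p up to 0.108).

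Pcdhga2 and the beta isoform Pcdhb8 showed other orders of animals. Pcdhga2 had 11.3, 10.4, 9.80, 11.1 and 11.7 CPM in wt HIP and 7.23, 11.0, 8.31, 7.90 and 9.75 in wt EC, and 9.53, 6.94, 9.05, 7.46, 11.1 and 15.8 in Ts66Yah HIP and 8.20, 5.61, 7.10, 5.31, 9.67 and 11.9 in Ts66Yah EC, animals in order of their numbers. Ts66Yah animal 6 was the highest in both regions, and Ts66Yah animals 2 and 4 were the lowest. Pcdhb8 had 2.34, 3.55, 4.21, 3.70 and 4.33 CPM in wt HIP and 2.28, 5.21, 5.29, 4.83 and 3.93 in wt EC, and 5.07, 2.61, 3.68, 3.16, 4.88 and 6.17 in Ts66Yah HIP and 6.83, 2.47, 3.38, 3.95, 5.43 and 5.87 in Ts66Yah EC. Here wt animal 1, the highest for Pcdhga5, was the lowest in both regions. The F was 10.9 for Pcdhga2 and 10.8 for Pcdhb8 (adjusted p = 0.00247 and 0.00257 by edgeR's quasi-likelihood test). Without Ts66Yah animal 6 the adjusted p of Pcdhga2 was 0.0707, and the call of Pcdhb8 held without any single animal.

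In the alpha cluster Pcdha5 and Pcdha7 were called. Pcdha5 had 3.38, 3.72, 4.14, 2.79 and 3.38 CPM in wt HIP and 4.89, 5.67, 4.96, 4.12 and 3.58 in wt EC, and 2.65, 2.55, 2.54, 2.42, 2.72 and 4.91 in Ts66Yah HIP and 3.84, 3.89, 4.42, 3.89, 4.52 and 8.43 in Ts66Yah EC. Ts66Yah animal 6 stood above all other animals in both regions, and the adjusted p was 0.00322 with this animal and 0.392 without it (edgeR's quasi-likelihood test). Pcdha7 had an adjusted p of 0.00513 and of 0.0676 without the same animal. The smallest F was that of Pcdhb20 (0.759), whose CPM in HIP ran only from 9.09 to 10.9 over all 11 animals, and in EC from 13.3 to 16.5.

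**Figure D4:**
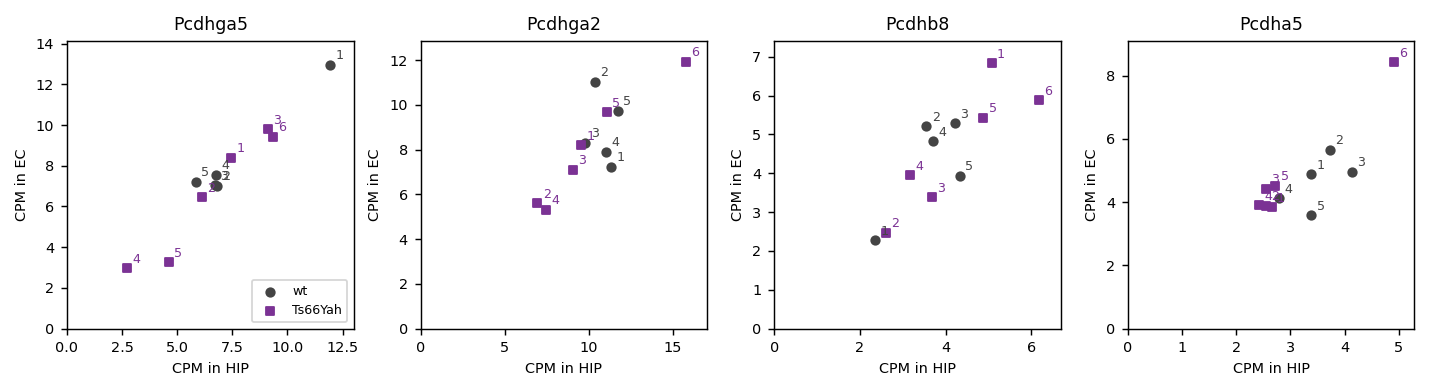
CPM in EC against CPM in HIP of the same animal for Pcdhga5, Pcdhga2, Pcdhb8 and Pcdha5, with wt as grey circles, Ts66Yah as purple squares, the animal number beside each point and both axes from 0. For Pcdhga5 the animals run from Ts66Yah 4 at 2.73 and 2.95 CPM to wt 1 at 11.9 and 13.0 CPM.

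Among the 17 members called, Ts66Yah animal 6 had the highest mean deviation from its genotype for 9, Ts66Yah animal 2 the lowest for 7 and Ts66Yah animal 4 the lowest for 6. Over all 55 members tested, Ts66Yah animal 6 was the highest for 22, Ts66Yah animal 2 the lowest for 14 and Ts66Yah animal 4 the lowest for 13. The sum of the 12 A-type gamma isoforms was 119 CPM in HIP and 133.5 in EC in Ts66Yah animal 6, 87.5 and 89.6 in Ts66Yah animal 2 and 78.6 and 95.6 in Ts66Yah animal 4, while the 5 wt animals lay between 95.8 and 112 in HIP and between 115 and 124 in EC. The median log2 deviation of the A-type gamma isoforms was 0.23 in Ts66Yah animal 6, -0.32 in animal 2 and -0.28 in animal 4, and that of all genes tested 0.00276, -0.00255 and -0.00100. Without Ts66Yah animal 6 the test called 7 members (5.53% of all genes), without Ts66Yah animal 2 it called 9 (5.01%) and without Ts66Yah animal 4 it called 11 (6.39%). All of these were among the 17, and leaving out any other animal gave 13 to 17 (5.21% to 8.09% of all genes). With all animals the test called 6.83% of all genes. Of the marker lists, it called 2 of 5 choroid plexus genes, 2 of 5 genes of the meninges, and 1 each of 7 cortical, 6 interneuron, 5 microglial and 3 endothelial genes. At an unadjusted p under 0.05 these were 3, 5, 1, 4, 4 and 1. It called 0 of the 7 hippocampal, 5 neuronal, 6 astrocyte, 5 oligodendrocyte and 6 striatal genes (2, 1, 1, 0 and 2 at an unadjusted p under 0.05), and the part of these cells in the result was not tested.

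The spread between animals was smallest in the C-type members. The highest library of a region exceeded the lowest by a median of 1.43-fold in HIP and 1.39-fold in EC over the 5 C-type members, against 1.85- and 2.21-fold in the alpha, 1.52- and 1.75-fold in the beta and 1.70- and 1.67-fold in the gamma cluster. It exceeded 2-fold for 16 members in HIP and 19 in EC. These folds include counting error, which weighs more in the low members, and 3 of the 5 C-type members hold the highest levels per length.

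**Figure D5:**
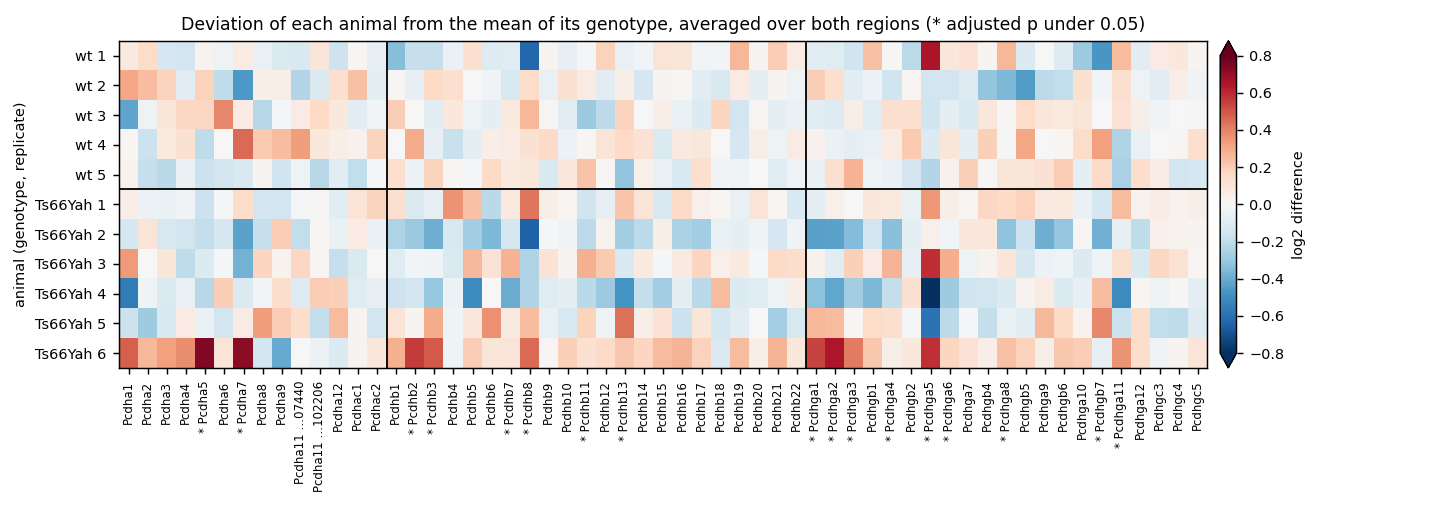
Deviation of each animal (rows) from the mean of its genotype on the log2(CPM + 0.5) scale, averaged over HIP and EC, for each clustered protocadherin (columns, in chromosomal order), with colours saturating at the ends of the bar and an asterisk at the 17 members called. Ts66Yah animal 6 is mostly red, with the highest value for 22 of 55 members tested, and Ts66Yah animals 2 and 4 are mostly blue across the gamma A isoforms.

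Genes known to act on the clusters were compared in the same fits. Of 11 genes for CTCF and the cohesin ring with its loaders and unloaders, edgeR's quasi-likelihood test called 0 between the genotypes, with 1 at an unadjusted p under 0.05 in HIP and 0 in EC. Between the regions 7 of 11 were lower in EC in wt mice, among them the cohesin loader subunit Nipbl (-0.47 ± 0.09) and the cohesin release factor Wapl (-0.46 ± 0.08). In Ts66Yah mice all 11 were called, 9 lower, Ctcf (-0.16 ± 0.05) among them, and 2 higher, the cohesin subunits Rad21 (0.17 ± 0.04) and Smc1a (0.12 ± 0.05). Of 12 genes of DNA methylation and silencing, 0 were called between the genotypes (0 and 0 at an unadjusted p under 0.05), and 6 between the regions in each genotype. The maintenance methyltransferase Dnmt1 was higher in EC (0.29 ± 0.07 in wt), whereas the oxidases of methylcytosine Tet1 (-0.76 ± 0.11), Tet2 (-0.74 ± 0.13) and Tet3 (-0.53 ± 0.11), the methyltransferase Dnmt3a (-0.33 ± 0.08) and the histone methyltransferase Setdb1 (-0.27 ± 0.07) were lower. All genes were called between the regions at 47.7% in wt and 54% in Ts66Yah mice. The animal test called 0 genes of either list (2 and 5 at an unadjusted p under 0.05).

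Among 17 partners of the cytoplasmic domains, such as the kinase Ptk2b and the actin regulators of the WAVE complex, 0 were called between the genotypes (0 in HIP and 0 in EC at an unadjusted p under 0.05, edgeR). Between the regions 11 were called in wt mice (47.7% of all genes), 4 higher and 7 lower in EC. In Ts66Yah mice 15 were called (54% of all genes), 7 higher and 8 lower. Marcks, an actin-binding substrate of protein kinase C, was higher in EC by 1.16 ± 0.09 in wt mice, and the kinase gene Prkca lower by a difference of -1.05 ± 0.08. Of the non-clustered protocadherins, which lie outside these clusters, 9 of 12 were called in each genotype, 6 higher and 3 lower in EC. The share of all genes called was 47.7% in wt and 54% in Ts66Yah mice. Log2 differences of these 12 genes ran in wt mice from -2.30 ± 0.14 for Pcdh20 to 1.27 ± 0.13 for Pcdh7. Between the genotypes 0 were called (0 in HIP and 0 in EC at an unadjusted p under 0.05, edgeR), and 2 of 12, Pcdh9 and Pcdh15, were called between animals (6.83% of all genes). Of 4 other self-recognition molecules, Dscam, which lies on the additional segment of Mmu16, was called as higher in Ts66Yah mice, by 0.61 ± 0.05 in HIP and 0.71 ± 0.06 in EC, and the other 3, Dscaml1, Sdk1 and Sdk2, were not. Of the neighbouring genes, 0 of 21 tested in HIP and 0 of 20 tested in EC were called between the genotypes (3 and 1 at an unadjusted p under 0.05, edgeR). Between the regions 10 of 20 neighbours were called in wt mice (47.7% of all genes) and 8 of 20 in Ts66Yah mice (54%).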

How the data were processed

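Per the methods, total RNA was read from a single end over 50 bases on a HiSeq 4000. The authors aligned reads to GRCm38 with HISAT2 and counted them with HTSeq-count on the gene models of Ensembl 99; versions, strand setting and overlap mode are not given in the sources used here. The labels describe a stranded poly(A) library, and the methods also name ribosomal RNA depletion. The submitters' processing notes list bcl2fastq 2.17.1.14 and DESeq2. The authors deposited raw counts per gene for 22 libraries, all mapped by label (0 columns left over). Their DESeq2 and FCROS tables hold their own comparisons, that is log2 fold changes, ratios, scores and p-values, and were not used.

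Counts as deposited were tested with edgeR 4.0.16 (R 4.3.3, TMM, filterByExpr, quasi-likelihood test, Benjamini-Hochberg over all genes tested, threshold 0.05), genotype within region, region within genotype, their interaction over 22 libraries, and 9 animal terms. The SE was the log2 fold change divided by the square root of F. Printed CPM use TMM factors over all libraries. GENCODE vM21, on GRCm38, matched 55144 of 55385 identifiers and gave the exclusive bases. Alternatives were DESeq2 1.42.0, RLE factors, other count filters, blocks, and each library or animal left out. The main edgeR fits, but not the alternatives, were also run on simulated counts of independent libraries. Each run changed 50 genes at each of 1.5-, 2-, 3- and 4-fold, all drawn from genes above 1 CPM. The number of changed genes was thus set by the simulation and not by these data. Of 50 genes changed 1.5-fold between the genotypes, 41 were recovered in HIP and 33 in EC. These recoveries do not cover members below that level, such as Pcdha4, Pcdha8 and Pcdhb1. False calls made up 7.29% of the calls of the animal test.

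Members, lists and comparisons were chosen with earlier results of these data known. Members named singly by rule were the C-type members, the called members with the smallest p (at most 5 per cluster and comparison), the 3 highest and the lowest per length in each cluster, the 3 smallest p of each genotype comparison, and the largest and smallest animal F. Pcdha1, Pcdha2, Pcdha3, Pcdhb4, Pcdhga4 and Pcdhgb1 were named outside this rule. No 2 libraries of a group were duplicates (chi-square per gene of at least 9.62). The HIP and EC libraries of a mouse, paired by the animal number in the labels, deviated together (r over genes of 0.182 to 0.529).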

Additional observations from a re-analysis of the deposited data

Results flagged for a closer look

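In groups of 5 or 6 libraries, a library was singled out where its gap to the next value took up more of the group's range than Dixon's 95% limit allows. Over the 39 members named by the rule and 3 cluster sums, each in 4 groups, this gave 10 of 168 groups, all of them of single members, and chance alone gives about 1 in 20. Of the 10, 4 concerned high values of Ts66Yah animal 6, with Pcdha5 in HIP (4.91 CPM against 2.42 to 2.72 in the other Ts66Yah libraries) and in EC (8.43 CPM against 3.84 to 4.52), Pcdhb2 in EC (5.11 CPM against 2.50 to 3.15) and Pcdha4 in EC (0.484 CPM against 0.169 to 0.247, from 14 reads). Pcdhga5 was high in wt animal 1 in HIP (11.9 CPM against 5.84 to 6.81 in the other wt libraries) and in EC (13.0 CPM against 7.02 to 7.56). Pcdhga5 and Pcdha5 were the members singled out in both regions of the same animal.

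The remaining values stood alone in a single library. Pcdhga12 was high in the HIP of wt animal 5 (13.9 CPM against 10.9 to 11.6). Pcdhb16 was low in the EC of the same animal (6.43 CPM against 8.46 to 8.86). Pcdhga9 was low in the EC of Ts66Yah animal 2 (8.62 CPM against 11.9 to 13.7). Pcdhgc4 was low in the HIP of Ts66Yah animal 5 (8.90 CPM against 11.1 to 12.2).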

How the results depend on the processing

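Of 118 alternative values for the counts of called members, the cluster sums and the levels per length, 108 stayed close to the main value and 10 moved. In EC, DESeq2 called 1 member between the genotypes (0.606% of all genes) where edgeR called 0 (0.283%). The animal count of 17 ran from 7 to 17 with an animal left out, falling by over 1.5 times without Ts66Yah animal 6 (7), 2 (9) or 4 (11). Medians per length depended on the bases counted. With overlaps on the same strand only they were 1.59 CPM per kb in EC for the alpha and 3.15 in HIP for the gamma cluster, and with whole exonic lengths 0.571 and 0.709 for the alpha and 1.76 and 1.97 for the gamma cluster in HIP and EC. Values of single genes changed side of the threshold in 99 of 3363 alternatives, 74 losing and 25 gaining a call. The sign changed in 107 of the 3363, for 41 values of single genes that were not called in any of these fits and were at most 0.21 in size on the log2 scale (Pcdhga5 in HIP between the genotypes), in 7 of 219 alternatives for cluster medians of the fold change, at most 0.03 in size, and in 1 for a cluster sum. The direction of such small values is not fixed by these data, and the cause of these changes was not tested.

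Replicate numbers did not pair wt with Ts66Yah mice (r of the deviations from -0.0241 to 0.0940 in HIP and from 0.00737 to 0.268 in EC), and with the replicate block 0 members were called in either region. The animal as a replicate block gave 0 calls for the interaction, 24 in wt and 30 in Ts66Yah mice between the regions. A block by range of animal numbers, without wt animal 1, also gave 0. Restricting the members to those with at least 1000 exclusive bases, chosen after the data had been seen, left the counts at 0, 0, 0, 20, 22 and 17. Members with few reads, Pcdha4, Pcdha8 and Pcdhb1, have wide intervals, and counts per isoform average over many cells, so that choice in single neurons is not measured.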

Other observations

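Pcdhgb8, a gamma gene annotated as a polymorphic pseudogene, was not a member by its biotype. It ranged from 0.705 to 1.34 CPM in wt HIP (median 1.09), from 0.455 to 1.08 in Ts66Yah HIP (median 0.804), from 0.645 to 1.14 in wt EC and from 0.455 to 1.14 in Ts66Yah EC. The genotypes overlapped in both regions, with log2 differences of -0.38 ± 0.25 in HIP and -0.31 ± 0.27 in EC, neither of them called by edgeR's quasi-likelihood test.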
